A study of Homo sapiens with 12 samples.

Results

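The 5 genes described here are HMOX1, GDF15, CLU, WARS and ADM2, out of 770 genes on a tumour progression panel. They are known targets or effectors of oxidative stress and of the integrated stress response, and were chosen by name by a rule that compared their means over the groups of the study. Their fold changes and p-values against control are therefore given as a description and carry no test of their own. The cells were HCT-116, an established human line of epithelial cells from a colorectal carcinoma. Cells were left as control, treated with heteronemin (a sesterterpenoid of marine sponges), treated with tetrac (tetraiodothyroacetic acid, a deaminated analogue of thyroid hormone), or given both compounds, for 24 h, with 3 samples in each of the 4 groups. All groups were of this one cell line; neither doses nor the vehicle of the control appear in the sources used here, and no label says that the samples of a group were separate cultures.

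RNA was counted on the NanoString nCounter, which reads a fluorescent barcode for each probe bound to a transcript. The values are the authors' group means of normalized counts, so a value has no SD or interval here, and the raw depth is unknown. The lowest mean in any group was 33, called the floor here. In control 279 genes had this value, against 70 with heteronemin, 61 with tetrac and 90 with both. All 5 stress genes were above it in all 4 groups. The 11 measured epithelial markers were uneven. EPCAM, the epithelial adhesion molecule, had means between 1403 and 1814, and KRT19, a simple epithelial keratin, between 1376 and 1637. In control, CEACAM5 was at the floor, KRT7 at 34.09 and CEACAM6 at 48.13. The leukocyte marker PTPRC was at the floor in control and at most 41.11 in a treated group. The 7 measured stromal markers summed to 265 in control, 471 with heteronemin, 332 with tetrac and 392 with both. The 5 endothelial ones summed to 168, 268, 208 and 234, the 2 leukocyte ones to 66, 111, 86 and 91.5, and the 11 epithelial ones to 7382, 6648, 6659 and 7246. In control, 5 of the 7 stromal, 3 of the 5 endothelial and 2 of the 2 leukocyte markers were at the floor. Much of these 3 control sums is therefore the floor value of 33, and the sums do not show that such cells were present. The part of these differences in the results below was not tested. In such bulk RNA, fewer cells with a transcript and less of the transcript per cell cannot be told apart.

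The integrated stress response is the branch of cell stress signalling in which kinases that sense amino acid lack, unfolded protein, haem lack or viral RNA phosphorylate the initiation factor eIF2. General translation then falls while that of the transcription factor ATF4 rises, and ATF4 and its partner CHOP turn on genes of amino acid supply, tRNA charging and secreted stress signals. Oxidative and electrophilic stress is read in parallel by the sensor KEAP1, which releases the transcription factor NRF2. HMOX1 encodes haem oxygenase 1, which cleaves haem to biliverdin, iron and carbon monoxide and is a classical NRF2 target. WARS encodes the cytoplasmic tryptophanyl-tRNA synthetase, which is induced by interferon gamma and, like other synthetase genes, by ATF4. GDF15 encodes a secreted cytokine of the TGF-beta superfamily that is induced by ATF4, CHOP and p53. ADM2 encodes adrenomedullin 2, or intermedin, a secreted peptide hormone of the calcitonin family and a known ATF4 target. CLU encodes clusterin, an extracellular chaperone that is induced by heat shock and other proteotoxic stress.

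Because these genes are joined by known transcription factors, the 250 bases before the start site are shown. They come from the RefSeq promoter table of build GRCh38.p14, for the genes matched there by current symbol. These were GDF15, ADM2 and WARS (WARS1 in current naming, with 2 start sites). Capitals mark a match to any of 5 searched motifs, and the sequences run 5′ to 3′ on the strand of the gene.
GDF15, chr19:18385908-18386157, plus strand: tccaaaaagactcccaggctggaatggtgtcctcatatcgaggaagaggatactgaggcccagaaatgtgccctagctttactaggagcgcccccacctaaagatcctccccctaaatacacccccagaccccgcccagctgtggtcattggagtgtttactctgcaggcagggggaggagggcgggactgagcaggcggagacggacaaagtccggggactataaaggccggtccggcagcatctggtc
ADM2, chr22:50481293-50481542, plus strand: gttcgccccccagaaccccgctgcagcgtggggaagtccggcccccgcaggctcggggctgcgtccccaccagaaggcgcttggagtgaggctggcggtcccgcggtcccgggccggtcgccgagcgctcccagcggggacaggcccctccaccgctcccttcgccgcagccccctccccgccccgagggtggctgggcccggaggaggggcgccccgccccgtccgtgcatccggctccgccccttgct
WARS, upstream start, chr14:100376328-100376577, minus strand: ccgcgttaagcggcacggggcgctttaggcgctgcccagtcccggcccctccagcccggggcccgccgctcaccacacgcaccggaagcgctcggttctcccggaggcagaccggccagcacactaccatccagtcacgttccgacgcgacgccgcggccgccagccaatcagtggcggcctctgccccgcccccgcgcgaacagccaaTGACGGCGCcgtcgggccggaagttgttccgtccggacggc
WARS, downstream start, chr14:100375348-100375597, minus strand: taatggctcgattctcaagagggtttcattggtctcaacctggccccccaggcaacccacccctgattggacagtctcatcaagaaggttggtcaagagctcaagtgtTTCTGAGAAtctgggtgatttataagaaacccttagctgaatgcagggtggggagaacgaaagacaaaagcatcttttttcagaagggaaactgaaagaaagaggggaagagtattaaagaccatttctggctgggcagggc

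The motifs were searched on both strands, and no match overlapped another. The gamma-activated site TTCNNNGAA, a known element of interferon gamma response, was held by the downstream WARS window, 134 to 142 bases before the start, and by 6.57% of all 35116 promoter windows of this length. The core of the antioxidant response element, TGACNNNGC, was held by the upstream WARS window, 33 to 41 bases before the start, and by 10.9% of all windows. The core of the C/EBP-ATF response element, TGATGNAA, the AP-1 site TGANTCA and the heat shock elements GAANNTTC and TTCNNGAA were in none of these 4 windows, and in 3.14%, 6.57% and 11.6% of all windows. The windows also differed in base composition: 78.8% of the ADM2 bases, 73.6% of the upstream and 47.2% of the downstream WARS bases and 58.4% of the GDF15 bases were G or C, against a median of 58% over all windows. The data do not tell which WARS start site was used.

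HMOX1 had the largest fold of the 5 genes after the combination. Its mean was 96.55 in control cells, 207 with heteronemin, 95.6 with tetrac and 242 with both. Thus the control and the tetrac mean lay close together at the low end, and the 2 groups that had received heteronemin were high. Heteronemin gave a 2.14-fold higher mean than control, with a p of 0.02 in the authors' deposited table, and the combination a 2.5-fold higher one, with p = 0.01. For tetrac the log2 ratio was -0.01, with p = 0.95 in the authors' deposited table.

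GDF15 had a mean of 748 in control, 1119 with heteronemin, 712 with tetrac and 1479 with both compounds. The combination stood apart from heteronemin by 361 normalized counts, nearly as much as heteronemin stood above control, which was 371. In fold terms this was 1.5-fold over control for heteronemin, with a p of 0.06 in the authors' deposited table, and 1.98-fold for the combination, with a p of 0.01. It was the one gene of the 5 that did not pass a p of 0.05 after heteronemin alone. After tetrac its log2 ratio to control was -0.07, with p = 0.76 in the authors' deposited table.

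CLU had a mean of 1169 in control, 1859 with heteronemin, 997 with tetrac and 2352 with both compounds. Tetrac alone gave the lowest mean and the combination with tetrac the highest. The fold over control was 1.59 for heteronemin, with a p of 0.03 in the authors' deposited table, and 2.01 for the combination, with p = 0.01. The tetrac mean was 1.17-fold lower, with p = 0.17 in the authors' deposited table.

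WARS had a mean of 292 in control, 453 with heteronemin, 283 with tetrac and 552 with both compounds. Both groups with heteronemin were above both groups without it. Heteronemin gave 1.55-fold over control, printed with p = 0 in the authors' deposited table, which stands for any p below 0.005. This was the smallest printed p of the 5 genes for heteronemin, at a smaller fold than that of HMOX1, ADM2 or CLU. The combination gave 1.89-fold, with a p of 0.01 in the authors' deposited table, and tetrac a log2 ratio of -0.04, with p = 0.4.

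ADM2 had a mean of 67.32 in control, 133 with heteronemin, 79.35 with tetrac and 136 with both compounds. It differed from the other 4 genes in 2 ways: its tetrac mean was above the control mean, 1.18-fold with a p of 0.47 in the authors' deposited table, and its combination mean was almost that of heteronemin. Heteronemin gave 1.97-fold over control and the combination 2.02-fold, each with p = 0.01 in the authors' deposited table. The control mean of ADM2 was the nearest to the floor of the 5 control means. Low genes of the panel often had a higher mean after tetrac as well. Of the 414 genes with a mean under 100 over the 4 groups, 79.7% were higher after tetrac than in control. Only 8.94% of them had a higher mean in the combination than after heteronemin, where the mean of ADM2 was slightly higher (136 against 133). The mean of ADM2 over the 4 groups was 104.

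**Figure D1:**
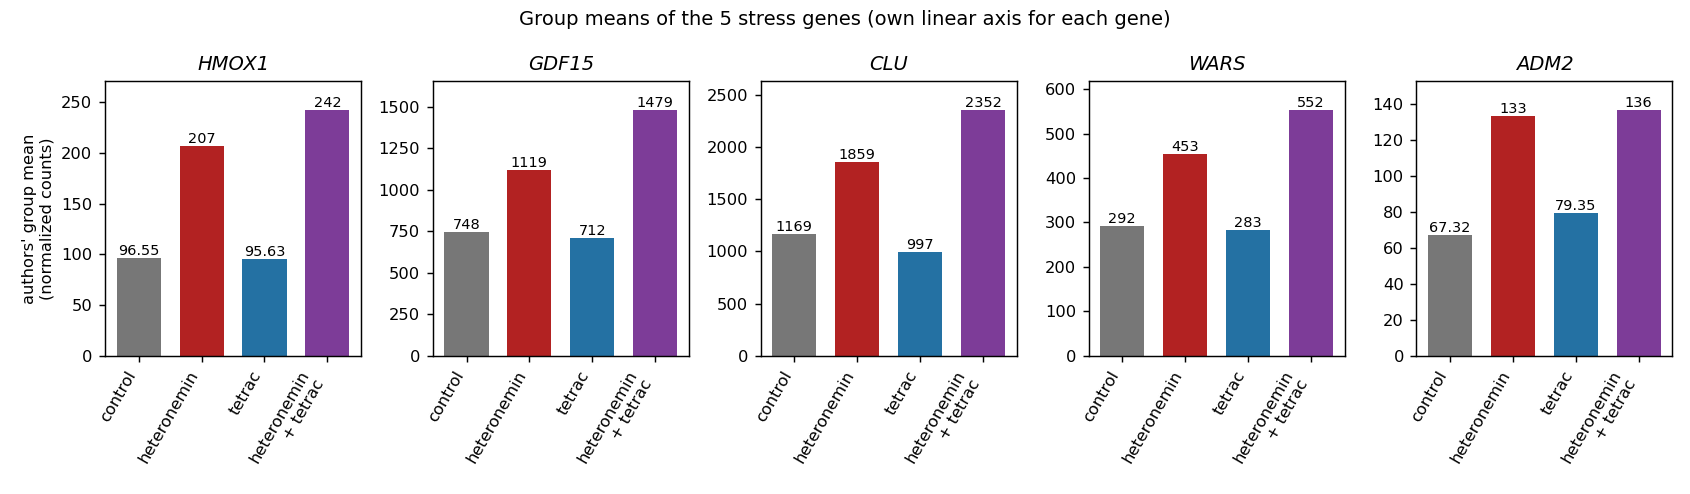
Authors' group mean of normalized counts (vertical axis, linear, from 0, with its own range for each gene) for the 4 groups (bars). The bars are group means without error bars, because no spread per group is in the tables; the heteronemin and combination bars are the highest pair for each gene, and ADM2 has nearly equal bars in those groups, 133 and 136.

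By group, the deposited means from low to high were in the order tetrac, control, heteronemin, combination for HMOX1, GDF15, CLU and WARS, and control, tetrac, heteronemin, combination for ADM2. For HMOX1, GDF15 and WARS the places of tetrac and control turned round when each gene was set against genes of like level, so their order is open to the scaling. Without a spread per group, which neighbours in this order differ beyond their samples' scatter cannot be said, except for the comparisons with control that carry the authors' p. The highest group mean was 2.53-fold the lowest for HMOX1, 2.36-fold for CLU, 2.08-fold for GDF15, 2.02-fold for ADM2 and 1.95-fold for WARS.

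A p under 0.05 in the authors' deposited table, with no adjustment, is the call used here. Where samples of a group are not separate cultures, such a p covers technical scatter alone. After heteronemin 4 of the 5 genes were called higher and none lower, while 11.2% of the 704 genes with a p were called higher. After tetrac 0 of the 5 genes were called, against 0.28% of 714 genes called higher and 0.98% called lower. After the combination all 5 were called higher, against 8.16% of 686 genes. Since these same values chose the 5 genes, nothing is read from the contrast with the panel. Among the 491 genes above the floor in control, the shares called higher were 15.1% for heteronemin and 11.2% for the combination. The calls are unadjusted: after Benjamini-Hochberg adjustment over the table, each of the 5 genes had an adjusted p of 0.0754 for the combination in the authors' deposited values. Of the 5, only WARS passed after heteronemin by the authors' deposited values, and it lost that under the largest p that rounds to the printed one, where its adjusted p was 0.0859.

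**Figure D2:**
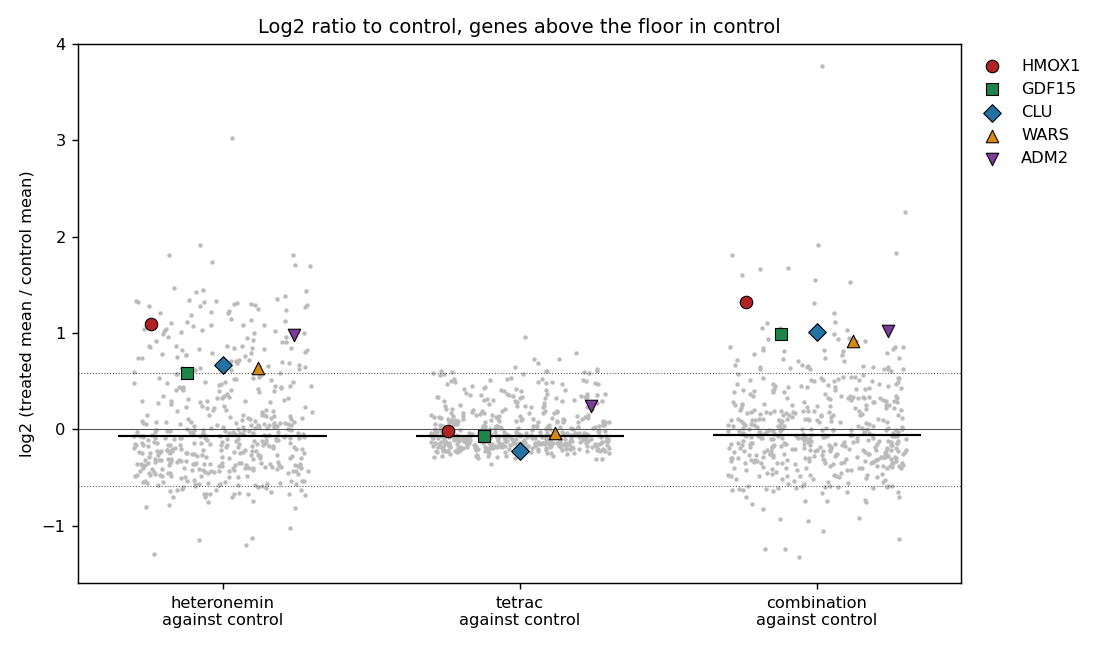
Log2 of treated over control mean (vertical axis) for the 491 genes above the floor in control, by comparison (horizontal axis). Grey points are the other panel genes, spread sideways at random, the black line is their median with the 5 genes included, dotted lines mark 1.5-fold, and coloured symbols are the 5 genes, which lie between 0.58 and 1.10 after heteronemin, between -0.23 and 0.24 after tetrac and between 0.92 and 1.32 after the combination.

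In order of fold after the combination among those 491 genes, HMOX1 came 11th. It followed POPDC3, the E-cadherin repressor SNAI1 and MYCL, a MYC family member, at 3.04-fold, 2.93-fold and 2.88-fold. Behind it came the laminin chain LAMA3 at 2.48-fold, DPT at 2.31-fold and CCDC80 at 2.17-fold, the last 2 with control means of 33.53, next to the floor. ADM2, CLU and GDF15 lay in neighbouring places, 20, 21 and 23, at 2.02-fold, 2.01-fold and 1.98-fold, with the collagen chain COL1A1 between CLU and GDF15 at 1.98-fold. NDRG1, PTPRM and the lysosomal protease CTSL followed at 1.93-fold, 1.92-fold and 1.91-fold, and WARS held place 28. The E-cadherin repressor ZEB1, just above ADM2, stood at 2.04-fold, from a control mean of 33.89 that was also next to the floor. MYCL and LAMA3 had low control means too, of 36.54 and 46.05. After heteronemin alone the 5 genes were further down the same order: 38 genes had a larger fold than HMOX1, 52 than ADM2, 89 than CLU, 96 than WARS and 105 than GDF15.

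Ratios on this panel moved with the level of a gene. The median log2 ratio after heteronemin was -0.19 for the 356 genes with a mean of 100 or more over the 4 groups, and 0.65 for the 414 below. All 5 stress genes were among the 356, with ADM2 lowest at 104. HMOX1 and ADM2 reached this level only through the groups given heteronemin: their control means were 96.55 and 67.32 and their tetrac means 95.63 and 79.35. For these genes the background at this level, and the genes of like level, thus depend on the groups where they were high. Each log2 ratio was therefore also taken relative to the median of its 51 nearest genes in mean level over the 4 groups. After heteronemin this gave 1.08 for HMOX1, 1.04 for CLU, 0.95 for GDF15, 0.85 for WARS and 0.60 for ADM2, where the plain log2 ratios were 1.10, 0.67, 0.58, 0.64 and 0.98. The 3 genes CLU, GDF15 and WARS thus stood further from genes of like level than from control, and ADM2 less far. After the combination the relative values were 1.41 for HMOX1, 1.25 for CLU, 1.21 for GDF15, 1.02 for WARS and 0.91 for ADM2. After tetrac they ran from -0.07 for CLU to 0.15 for ADM2. The sign for HMOX1, GDF15 and WARS turned from slightly negative in the plain ratios (-0.01, -0.07 and -0.04) to slightly positive (0.01, 0.08 and 0.07).

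**Figure D3:**
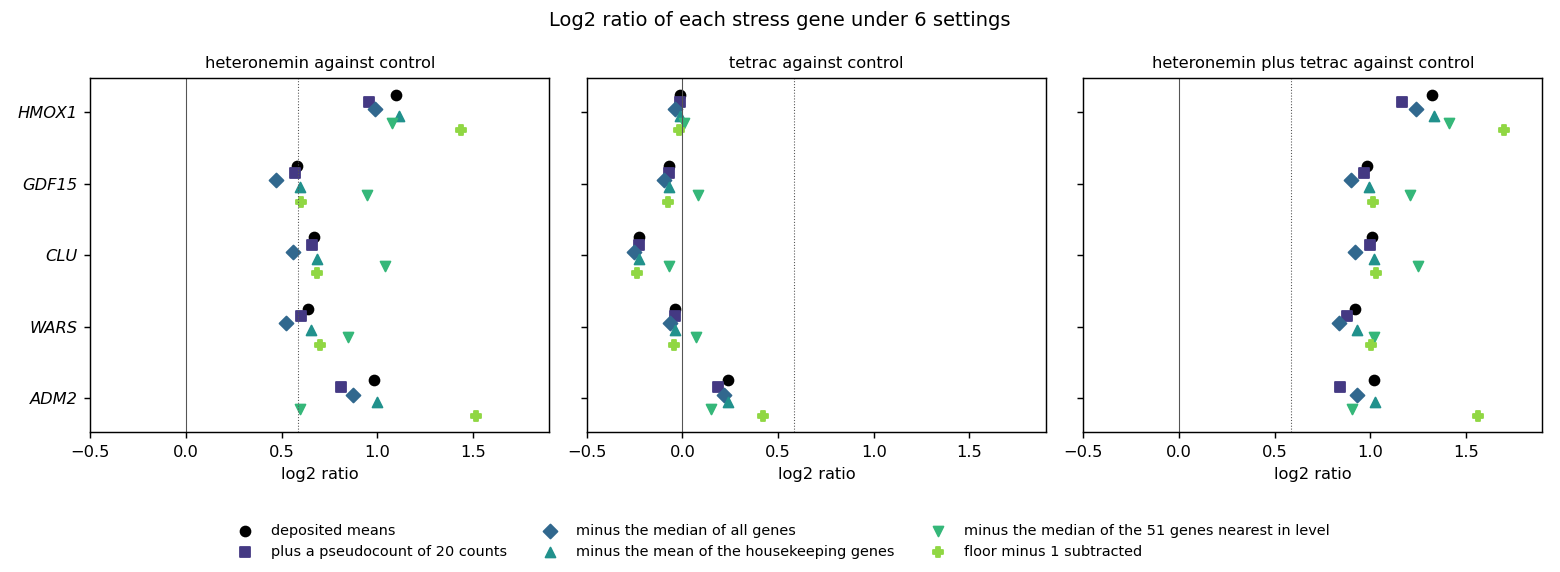
Log2 ratio to control (horizontal axis) of each of the 5 genes (rows) under 6 settings (symbols), with a panel for each comparison; the dotted line marks 1.5-fold and the solid line no difference. After the combination every symbol lies right of 1.5-fold, from 0.83 for WARS to 1.70 for HMOX1, while for tetrac the symbols lie between -0.25 and 0.42.

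The combination was next set against each compound alone. These are ratios of the authors' means, with no test, since the tables hold p-values against control only. Over tetrac, the combination mean was 2.53-fold for HMOX1, 2.36-fold for CLU, 2.08-fold for GDF15, 1.95-fold for WARS and 1.72-fold for ADM2. All 5 genes were thus at 1.5-fold or more, as were 4.81% of the 770 genes and 7.68% of the 482 genes above the floor in all groups. Over heteronemin, the combination mean was 1.32-fold for GDF15, 1.27-fold for CLU, 1.22-fold for WARS, 1.17-fold for HMOX1 and 1.03-fold for ADM2. None of the 5 reached 1.5-fold, which 0.26% of the 770 genes did. All 5 had a higher mean in the combination than after heteronemin, as did 35.5% of the 770 genes, 53.1% of the 482 and 66.3% of the 356 genes at a level of 100 or more. Of the 414 genes below that level, 8.94% did. In the 482, 9 genes had a larger ratio of combination over heteronemin than GDF15, 17 than CLU, 25 than WARS, 51 than HMOX1 and 220 than ADM2, which was close to the panel median of 0.02 on the log2 scale with its own 0.04.

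On the count scale, the rise after heteronemin made up 95.2% of the combination's rise for ADM2, 75.7% for HMOX1, 62.0% for WARS, 58.3% for CLU and 50.7% for GDF15. The sum of the log2 ratios of the single compounds would give 1.36-fold over control for CLU, where the combination's mean was 2.01-fold. For GDF15 the sum would give 1.42-fold against 1.98-fold, for WARS 1.51-fold against 1.89-fold and for HMOX1 2.12-fold against 2.5-fold. ADM2 went the other way, with 2.33-fold from the sum against 2.02-fold. The log2 difference between the combination and the sum was 0.57 for CLU, 0.47 for GDF15, 0.33 for WARS, 0.24 for HMOX1 and -0.20 for ADM2, against a median of 0.09 over the 482 genes and of 0.18 over the 356 genes at a level of 100 or more, 74.4% of which were above 0. Of the 482 genes, 8 had a larger difference than CLU, 17 than GDF15, 82 than WARS and 150 than HMOX1. Whether any of these differences exceeds the scatter of the samples was not tested, and all of them contain the control mean.

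**Figure D4:**
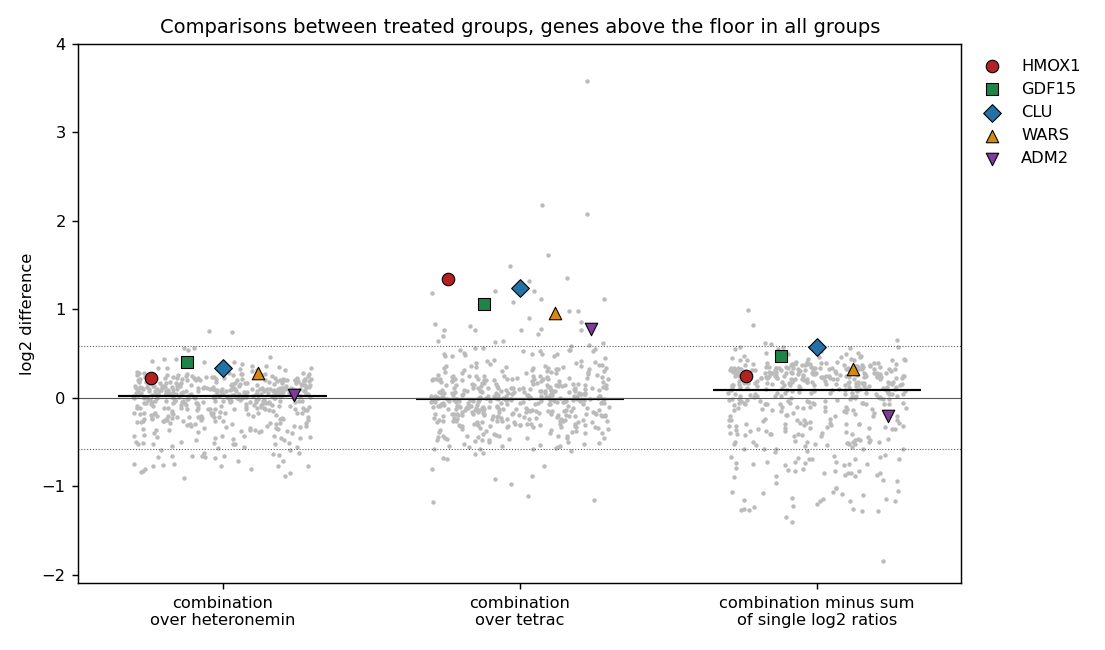
Log2 differences between treated groups (vertical axis) for the 482 genes above the floor in all 4 groups: the combination over heteronemin, the combination over tetrac, and the combination's log2 ratio minus the sum of the single ones (horizontal axis). Grey points are other panel genes, black lines medians and dotted lines 1.5-fold; the 5 genes lie between 0.04 and 0.40 in the first column, between 0.78 and 1.34 in the second and between -0.20 and 0.57 in the third.

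The genes were also compared by pattern, as the distance between their 3 log2 ratios to control, which share the control samples. GDF15 and WARS were the nearest pair of the 5, at a distance of 0.09, followed by GDF15 and CLU at 0.18 and CLU and WARS at 0.21. HMOX1 and ADM2 lay apart from these, at 0.57 to 0.62 and at 0.45 to 0.56, and at 0.41 from each other. Among the other 490 genes above the floor in control, WARS was nearest to GDF15, followed by CTSL at 0.10, CLU and the stress-induced gene NDRG1 at 0.19. The nearest to CLU were NDRG1 at 0.11 and CTSL at 0.17, with GDF15 and WARS also among the nearest 5. The nearest to WARS after GDF15 were CTSL at 0.15, the TNF family ligand TNFSF13 at 0.16, and CHRNA7 and PTPRM, each at 0.19. So CTSL was within the nearest 3 of all 3 genes, and its mean was 294 in control, 427 with heteronemin, 265 with tetrac and 563 with both compounds. NDRG1 had means of 721, 1084, 602 and 1388 in the same order, low after tetrac and high after the combination as CLU was.

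HMOX1 had no neighbour as near: SNAI1 stood at 0.26, and COL7A1, LAMA3 and ADM2 at 0.41 each. SNAI1 had means of 119, 275, 124 and 349 in the order control, heteronemin, tetrac and combination. The nearest to ADM2 were the collagen chains COL7A1 at 0.16 and COL1A1 at 0.17, the caveolar gene PTRF at 0.20, PTPRM at 0.28 and the pentraxin PTX3 at 0.34. COL7A1 and COL1A1 had control means of 51.13 and 67.15, and, unlike GDF15, CLU and WARS, a lower mean in the combination (108 and 133) than after heteronemin (111 and 144).

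The rest of the integrated stress response on the panel was small: 7 of 44 listed genes were measured, and 4 of these are not among the 5. Of the 4, 0 were called with heteronemin, 0 with tetrac and 1 with both, with median log2 ratios of 0.33, -0.01 and 0.50, beside 0.11, 0.02 and 0.09 over all 770 genes. The gene called was VEGFA, the angiogenic growth factor and an ATF4 target, with means of 461 in control, 660 with heteronemin, 466 with tetrac and 771 with both compounds. It was 1.67-fold over control in the combination, with p = 0.01 in the authors' deposited table. EIF4EBP1, the ATF4-induced repressor of cap-dependent translation, had means of 554, 612, 538 and 704 and was not called. EIF2AK3, which encodes the eIF2 kinase PERK, had means of 198, 193, 183 and 171 and was not called either. INHBE, an activin subunit induced by endoplasmic reticulum stress, had 33.2, 82.71, 46.87 and 52.25, near the floor in control, and was not called. ATF4 and CHOP themselves were not analysed here.

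Of the oxidative stress list, 3 of 43 genes were measured, so HMOX1 was almost alone. The cytoplasmic superoxide dismutase SOD1 fell, from 317 in control to 282 after heteronemin, with a p of 0.02 in the authors' deposited table, and to 257 after the combination, where p was printed as 0. Its tetrac mean was 280 and was not called. The glutathione peroxidase GPX1 had means of 353, 334, 371 and 286 in the order control, heteronemin, tetrac and combination, with no call. The 2 genes beside HMOX1 had median log2 ratios of -0.12, -0.05 and -0.30 for heteronemin, tetrac and combination.

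Of the protein folding and heat shock list, 4 of 21 genes were measured, and the 3 beside CLU were not called in any comparison. The endoplasmic reticulum chaperone HSP90B1 had means of 1080, 922, 964 and 1225, and the small heat shock protein gene HSPB1 of 511, 463, 493 and 550, in the same order. The collagen chaperone SERPINH1 had 936, 838, 851 and 885. Their median log2 ratio was -0.16 with heteronemin, -0.14 with tetrac and 0.11 with both, so CLU was the 1 gene of its list with a log2 ratio above 0.5.

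For ADM2, the receptor side was thinly covered. Adrenomedullin peptides act through the receptor CALCRL paired with an accessory protein of the RAMP family. CALCRL had means of 40.01, 42.42, 45.12 and 44.2 in control, heteronemin, tetrac and combination, all near the floor and not called. RAMP2 was at the floor in 3 groups and at 38.55 after tetrac. RAMP1 fell in the combination, from a control mean of 133 to 88.6, at a p of 0.01 in the authors' deposited table, while its heteronemin and tetrac means were 127 and 123. Over the 3 genes the median log2 ratio was 0 with heteronemin, 0.17 with tetrac and 0 with both. Of 6 listed receptors of GDF15 and clusterin, 0 were measured.

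**Figure D5:**
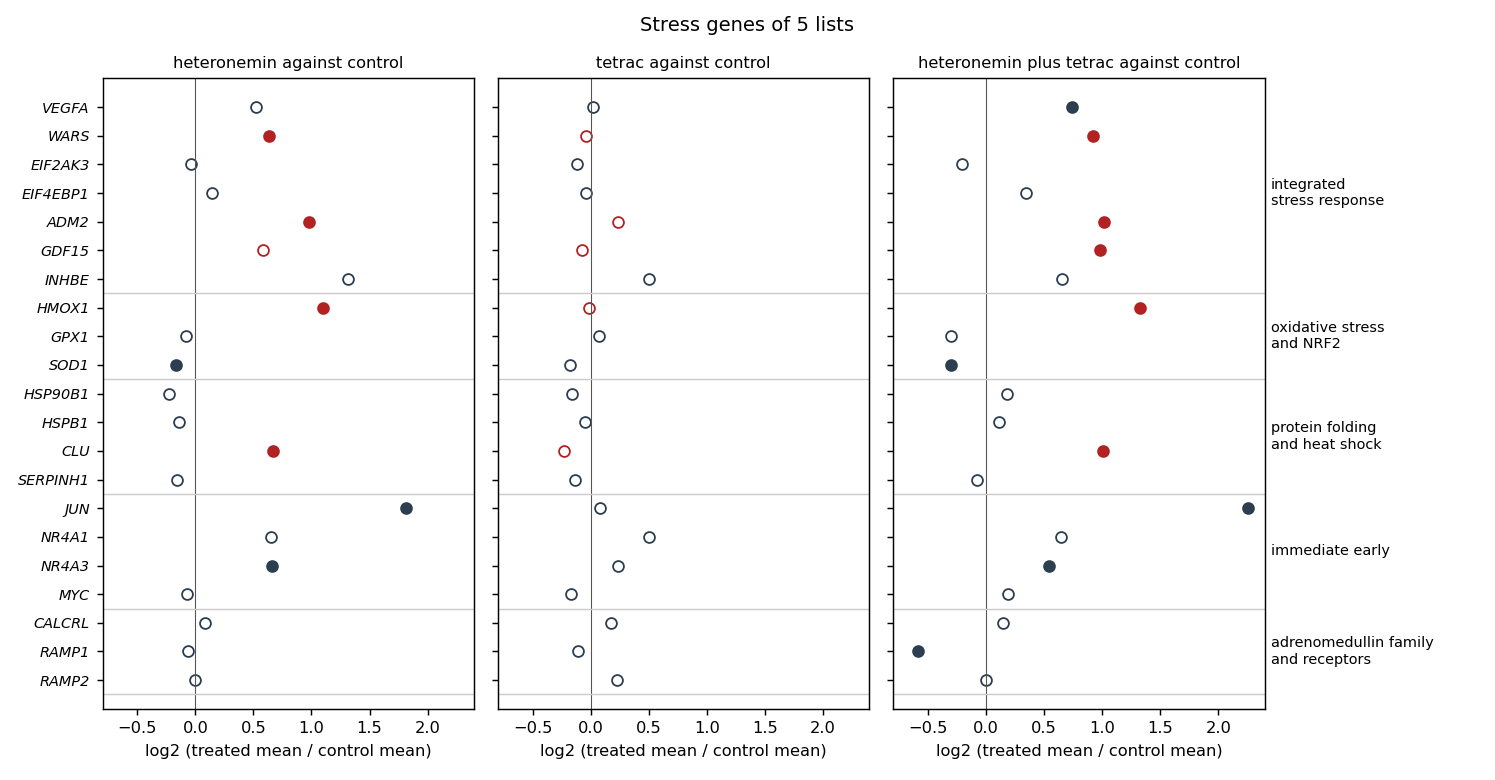
Log2 of treated over control mean (horizontal axis) for the measured genes of 5 lists (rows, grouped as named at the right), with a panel for each comparison. Red marks the 5 genes and dark blue the others, and a filled symbol a p under 0.05 in the authors' deposited table; after the combination all 5 red symbols are filled, and of the dark ones those of VEGFA, SOD1, JUN, NR4A3 and RAMP1.

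Neighbouring responses were counted in the same way. The panel shares called higher were 11.2% after heteronemin and 8.16% after the combination, and those called lower 15.9% and 14.1%. Of 4 immediate early genes, 2 rose after heteronemin and 2 after the combination. These 2 genes were the AP-1 subunit JUN, with means of 119 in control, 419 with heteronemin, 126 with tetrac and 569 with both compounds, and the nuclear receptor NR4A3, with 64.78, 103, 76.41 and 94.51. The list's median log2 ratios were 0.66, 0.16 and 0.60 for heteronemin, tetrac and combination. The first and last were set by NR4A3 and the uncalled NR4A1, whose control means were low, at 64.78 and 51.37. The 414 panel genes with a mean under 100 had medians of 0.65 after heteronemin and 0.33 after the combination. Of 6 p53 targets beside GDF15, 2 rose and 2 fell after heteronemin, and 2 rose and 1 fell after the combination, with medians of 0.49 and 0.32 and, for tetrac, 0 calls and 0.03. These medians include the uncalled MMP2 and CD82, with control means at and near the floor, 33 and 44.44. THBS1, which encodes the matrix protein thrombospondin 1, had means of 84.58, 126, 91.45 and 129 in the order control, heteronemin, tetrac and combination, and was called higher in both comparisons. CDKN1A, the p21 inhibitor of the cell cycle and a p53 target like GDF15, fell after heteronemin, from 1500 to 1093, at a p of 0.02 in the authors' deposited table, where GDF15 was not called. In the combination, where GDF15 was called higher, CDKN1A had a mean of 1284 and p = 0.22 in the authors' deposited table. The apoptosis list held 2 other measured genes, with 0 calls in each comparison and medians of 0.34, 0.04 and -0.03.

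WARS is also an interferon gamma target, and HMOX1 is counted among hypoxia genes. Of 3 other measured interferon genes, 0 rose and 1 fell after heteronemin and after the combination, and 0 were called after tetrac. The chemokines CXCL10 and CXCL11 were at the floor in control, reached at most 65.44 in a treated group and were not called, so WARS was the 1 interferon-listed gene called higher. The median log2 ratios of the 3 were 0.67, 0.46 and 0.41 for heteronemin, tetrac and combination, set by the chemokines near the floor. Of 13 other hypoxia genes with a p, 2 rose and 4 fell after heteronemin, 1 rose and 1 fell after tetrac, and 3 rose and 1 fell after the combination. NDRG1 and ANGPTL4 rose after heteronemin and again in the combination, there with VEGFA. LDHA fell in both comparisons, and PGK1, HIF1A and SLC2A1 fell after heteronemin. ANGPTL4 was the 1 riser and SLC2A1 the 1 that fell after tetrac. The medians over 14 measured genes were -0.14, -0.09 and -0.09. Over the 40 measured genes of all lists beside the 5, 6 of 38 tested rose and 8 fell after heteronemin, 1 and 1 of 39 after tetrac, and 7 and 5 of 38 after the combination. The panel shares called higher were 11.2%, 0.28% and 8.16% in that order, and those called lower 15.9%, 0.98% and 14.1%. Among genes above the floor in control, 15.1% were called higher after heteronemin and 11.2% after the combination. The lists are small, so nothing is read from their counts beside these shares.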

How the data were processed

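Per the series' design text, raw NanoString counts were normalized in nSolver 4.0 with a positive control factor and a biological normalization. The authors deposited a normalized signal, the mean of each group of 3 samples, in 3 tables of 770 genes (740 endogenous, 30 housekeeping). The authors deposited a score, a signed fold change that matched the quotient of the means within 0.00511, and a p-value printed to 2 decimals. The sources used here do not give the test, the kind of mean or the background rule.

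Log2 ratios of the deposited means were computed, and a gene was called at the authors' p under 0.05. Alternatives were the largest p that rounding allows, Benjamini-Hochberg adjustment, 1.5-fold, a level of 100, a pseudocount of 20, centring on all genes, on housekeeping genes or on 51 genes of like level, and subtraction of 32. The counting code was run on simulated data with the same scatter for all genes and effects only in genes with a control mean of at least 100. Those data had no shift with level and no lower limit on values, so they say nothing on how reliable the calls are here. Members, lists and rules were chosen with earlier results of these data known. Named were the 5 genes, up to 6 called genes per list, 5 nearest patterns and 3 neighbours in fold on each side; not all genes named by these rules are reported here. Promoter sequences are from RefSeq and were matched by current symbol, which gave 3 of the 5 genes. The match left out the chromosome of CLU, which the shares over all windows kept, so CLU could not be found. Python 3.11.15, numpy 2.4.6, scipy 1.17.1, pandas 2.3.3 and matplotlib 3.10.9 were used.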

Additional observations from a re-analysis of the deposited data

How the results depend on the processing

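Adjustment for multiple testing moved these counts of calls by more than 1.5 times. With the printed p-values adjusted after Benjamini-Hochberg, the 5 genes called higher in the combination went to 0, and the 4 called after heteronemin to 1, WARS. The panel calls went from 191 to 41 for heteronemin, from 9 to 0 for tetrac and from 153 to 48 for the combination, and those of list genes beside the 5 from 14 to 2, from 2 to 0 and from 12 to 6. For tetrac, 34 panel genes and 0 list genes were at 1.5-fold, and 1 list gene was called among genes with a level of at least 100. Of 95 other values of the log2 ratios of the 5 genes, 90 kept their side of 1.5-fold. GDF15 after heteronemin passed it in 3, and CLU and WARS fell short of it when centred on all genes, at 0.56 and 0.53. No paired analysis was possible because the tables hold group means and no value per replicate, so no replicate could be left out either.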
